A study of Rattus norvegicus with 8 samples.

Results

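The annexin A genes studied here were Anxa1, Anxa2, Anxa3, Anxa4, Anxa5, Anxa6, Anxa7 and Anxa11, 8 of the 30240 rows of the gene table. They were taken by their symbols, from a list drawn up with earlier results of these data known. Anxa8, also an annexin A gene, was not on that list. Their mRNA was read in 8 libraries of SF2 cells, a rat line of dental epithelium taken from the mandibular incisor. Cells were labelled either as Control or as overexpressing AmeloD, a transcription factor of the bHLH class found in tooth epithelium. Each genotype carried the plasmid label pCMV6 or pCMV6.ODAM, the latter named after ODAM, an enamel organ protein, and the label N or TGF. Neither N nor TGF is spelled out in the labels, and SF2 origin and a pCMV6-type plasmid label were common to all libraries. Every combination had 1 library, each level of a factor was carried by 4 libraries, and nothing in the labels says whether the AmeloD cells were a clone or a pool, or whether libraries came from separate cultures. The p values therefore measure the spread between these libraries, which may be technical. With 1 library per combination, that spread also holds any interactions of the labels left out of a fit. The test draws each gene's spread in part from the other genes as well.

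Annexins bind acidic phospholipids of membranes when calcium is present, through a conserved core of repeats, while a variable amino-terminal stretch binds partner proteins, many of them of the S100 family. They are known for roles in membrane repair, vesicle traffic, the linking of membranes to actin, and the control of phospholipase A2 and of inflammation. In stratified epithelia annexin A1 is a component of the cornified envelope and a substrate of the epidermal growth factor receptor. In the table's own Gene Ontology column all 8 genes carried the terms calcium ion binding and calcium-dependent phospholipid binding, the second of which stood on 52 rows in all. The term phospholipase A2 inhibitor activity stood on 4 rows, 3 of them Anxa1, Anxa2 and Anxa3. The 8 genes lie on 8 different chromosomes (mRatBN7.2), with Anxa1 (ENSRNOG00000017469) on the minus strand of chromosome 1 from 217861175 to 217877343 and Anxa2 (ENSRNOG00000010362) on the plus strand of chromosome 8 from 70105253 to 70141658. On the minus strand lie also Anxa3 (chromosome 14, 12719795 to 12781617), Anxa4 (chromosome 4, 119184374 to 119241161), Anxa5 (chromosome 2, 119314007 to 119353369) and Anxa6 (chromosome 10, 39097109 to 39156433). On the plus strand lie Anxa7 (chromosome 15, 3821845 to 3849385) and Anxa11 (chromosome 16, 1410756 to 1457797), and Anxa8 is at 9397113 to 9412043 of chromosome 16.

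Promoter windows were available from RefSeq (GRCr8) for 7 of the 8 genes, each covering 250 bases before to 50 bases after the start used by the table. AmeloD belongs to a class of factors that bind the E-box, CANNTG, which reads alike on both strands, so E-boxes were searched. Of the 7 windows 6 held an E-box, against 72.1% of all 33469 windows of 300 bases. Anxa2 was the window without one, and Anxa6 had no entry. The windows of Anxa1, Anxa5 and Anxa8 are printed, chosen with their genotype values known (Anxa1 higher and Anxa8 lower in AmeloD, Anxa5 not past the test). Each of these windows had the hexamer CATCTG close to the start, 5 bases before it in Anxa1 and Anxa5 and 3 bases before it in Anxa8. How often CATCTG lies so close to a start in all windows was not counted. Any part of this hexamer in the genotype values was not tested. Anxa8 is an annexin outside the set of 8. Capitals mark E-boxes, and each window reads 5′ to 3′ on the strand of its gene.
Anxa1 (chr1:227303683-227303982, minus strand): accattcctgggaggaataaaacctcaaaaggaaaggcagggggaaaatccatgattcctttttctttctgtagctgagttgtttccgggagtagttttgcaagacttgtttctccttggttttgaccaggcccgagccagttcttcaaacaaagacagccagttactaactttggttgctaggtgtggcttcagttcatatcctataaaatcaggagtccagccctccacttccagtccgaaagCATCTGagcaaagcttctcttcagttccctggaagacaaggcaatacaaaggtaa
Anxa5 (chr2:121272647-121272946, minus strand): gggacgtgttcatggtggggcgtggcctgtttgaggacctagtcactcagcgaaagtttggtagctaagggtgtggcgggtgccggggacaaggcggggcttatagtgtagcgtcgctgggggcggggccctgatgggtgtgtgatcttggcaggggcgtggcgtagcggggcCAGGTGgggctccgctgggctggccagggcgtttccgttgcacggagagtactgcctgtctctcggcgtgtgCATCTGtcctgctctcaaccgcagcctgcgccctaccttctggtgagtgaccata
Anxa8 (chr16:9403137-9403436, plus strand): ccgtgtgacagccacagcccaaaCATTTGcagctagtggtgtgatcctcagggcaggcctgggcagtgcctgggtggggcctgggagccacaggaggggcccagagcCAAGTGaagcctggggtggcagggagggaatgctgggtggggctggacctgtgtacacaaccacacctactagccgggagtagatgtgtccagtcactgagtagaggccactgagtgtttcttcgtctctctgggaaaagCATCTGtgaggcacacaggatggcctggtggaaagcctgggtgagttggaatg
The Anxa1 window had 1 E-box, that of Anxa5 had 2 and that of Anxa8 had 3. Anxa1 had the lowest GC content of the 7 windows, 45.0%, and the highest was 68.0%. The TATA box, searched as TATAAA on both strands, was in the windows of Anxa1 and Anxa2 and in 14.2% of all windows. The Smad box, searched as CAGAC on both strands with no regard to overlap, was in the windows of Anxa3 and Anxa11 and in 50.1% of all windows. RefSeq's Anxa1 gene model reaches 3007 bases further upstream than the start used for its window. These matches describe letters in these windows and not sites that were bound.

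The libraries totalled 10568146 to 13668736 reads in AmeloD and 14766931 to 17775226 in Control, so depth and genotype cannot be told apart. Between 1662973 and 2854134 reads per library lay in the gene table. The 8 annexins held 2211 to 4282 reads per library, and their summed level was 226 to 313 CPM in AmeloD and 150.0 to 195 CPM in Control. CPM gives a gene's reads relative to all reads of the library. Within these sums Anxa1 alone was at 125 to 159.8 CPM in AmeloD and at 51.9 to 74.5 CPM in Control. Anxa8, which is outside the set and was lower in AmeloD, was not summed. Of 7 listed epithelial markers, 6 were in the table (Krt14 was not analysed here) and had reads, with a summed level of 735 to 843 CPM in AmeloD and 502 to 644 CPM in Control. Krt17, Krt5, Epcam and Cdh1 were higher in AmeloD in limma's test (log2 changes 0.65, 0.37, 0.65 and 0.74), and their part in the annexin differences was not tested. The markers of other cell types were at or near 0. The 7 mesenchymal, 6 leukocyte, 4 endothelial and 4 odontoblast and bone markers had 6, 15, 4 and 6 reads in the 8 libraries together, and the highest summed level of any of these lists in a library was 0.339 CPM, in a Control library. Of the defining markers Col1a2, Pdgfrb, Tyrobp, Kdr and Dspp had 0 reads.

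The comparison of AmeloD with Control libraries asked which annexins differ in cells overexpressing AmeloD. Anxa1 rose 2.33-fold on the CPM + 1 scale and was the single annexin of the 8 past the test. The other 7 had changes between -0.15 and 0.37 on the log2 scale. Outside the set, Anxa8 fell and Anxa9 was read almost only in AmeloD. All 8 genes passed the filter on low values. The share of all tested genes called was 13.8% (9.07% higher and 4.75% lower in AmeloD), so 1 of 8 is near the background and says nothing about annexins as a family. In RNA from bulk cultures, fewer cells of a type and less RNA per cell cannot be told apart.

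Anxa1 was at 159.8, 125, 145 and 152 CPM in AmeloD and at 58.3, 51.9, 64.0 and 74.5 CPM in Control, with both plasmids under N first (pCMV6, then pCMV6.ODAM) and both under TGF after them. Every AmeloD library lay above every Control library, with a gap from 74.5 to 125 CPM. Such a separation with AmeloD higher was found for 9.49% of all tested genes. The means were 146 ± 14.8 and 62.2 ± 9.59 CPM (SD, n = 4 libraries each, which includes the differences between plasmid and TGF labels), on 7025 and 3981 reads. The log2 change was 1.22 ± 0.11 (SE, 95% interval 1.0 to 1.44, limma adjusted p = 5.84e-09). The matched pairs, libraries that differ in genotype alone, had changes of 1.44 (pCMV6 N), 1.25 (pCMV6.ODAM N), 1.17 (pCMV6 TGF) and 1.02 (pCMV6.ODAM TGF). The change was 1.35 in the N libraries alone and 1.09 in the TGF libraries alone.

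**Figure D1:**
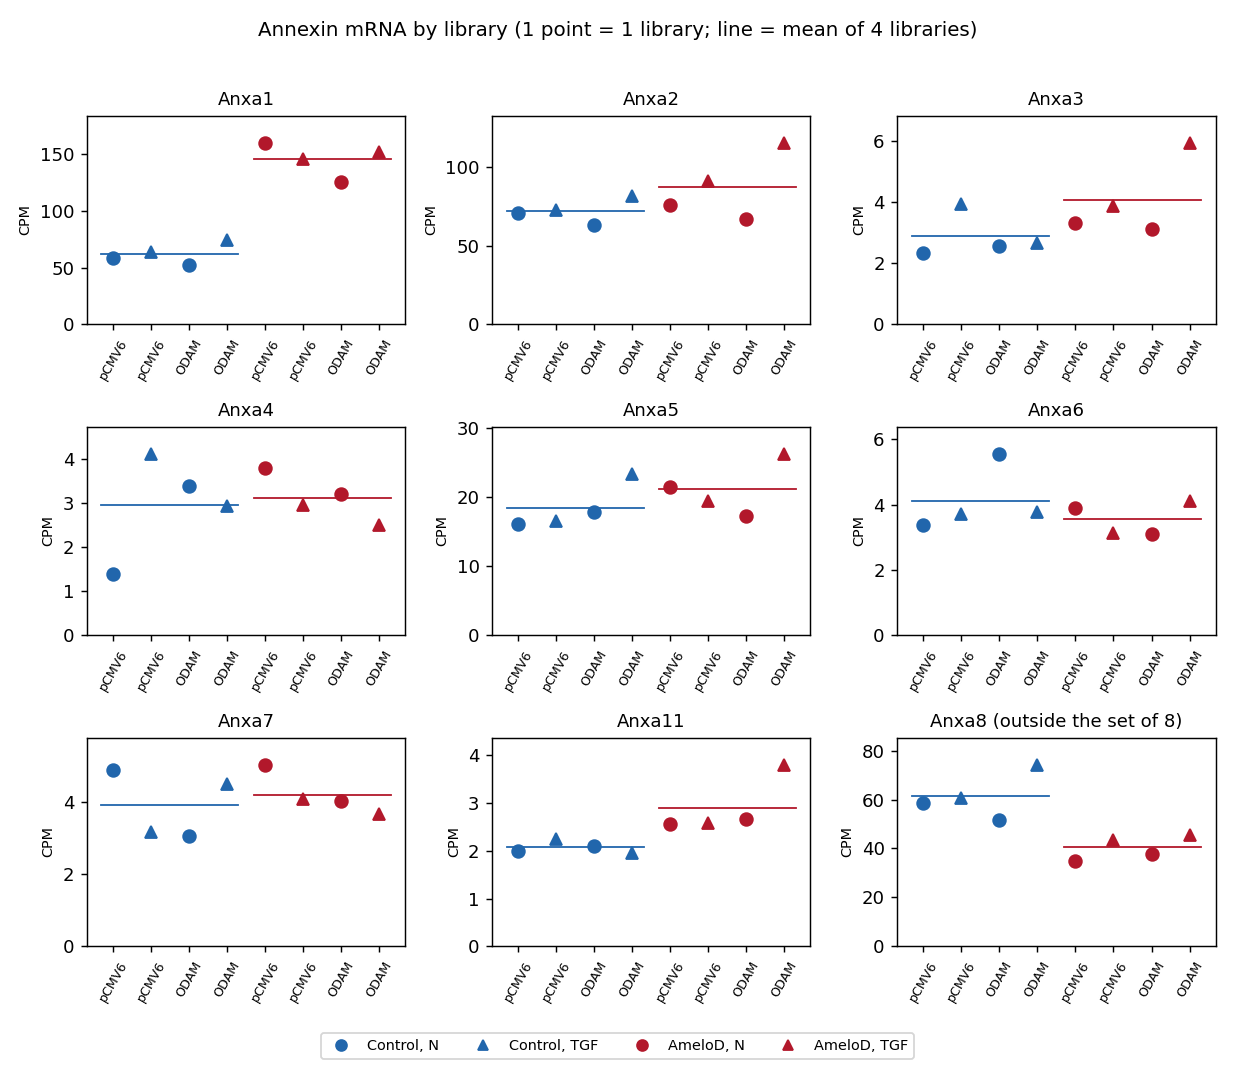
Level of each of the 8 annexins and of Anxa8 in CPM (vertical axes, from 0) in the 8 libraries. Circles are N and triangles TGF, colours are genotypes, tick labels give the plasmid (ODAM stands for pCMV6.ODAM) and lines are means of 4 libraries. Anxa1 lies at 125 CPM or above in AmeloD and at 74.5 CPM or below in Control, and Anxa8 lies the other way round.

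Anxa2 encodes the annexin that pairs with S100A10 at the plasma membrane and assists plasmin formation at the cell surface. It was at 75.5, 67.1, 90.9 and 115 CPM in AmeloD and at 70.6, 63.3, 72.4 and 81.3 CPM in Control, in the same order. The groups overlapped, although AmeloD was the higher in all 4 matched pairs, as was so for 3 of the 8 annexins (Anxa1, Anxa2 and Anxa11) and for 20.6% of tested genes. The change was 0.25 ± 0.11 (interval 0.02 to 0.48, limma adjusted p = 0.135). RefSeq lists 8 Anxa2 pseudogenes and 4 of Anxa7, and the rule for counting reads shared with such copies was not given in the sources used here, so both levels are uncertain in that respect. The 1 of these in the table, an Anxa2 copy, had 0 reads.

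Anxa5, whose protein binds phosphatidylserine exposed by dying cells, was at 17.2 to 26.3 CPM in AmeloD and at 16.1 to 23.4 CPM in Control, with a change of 0.18 ± 0.13 (interval -0.10 to 0.46, limma adjusted p = 0.426). The ranges overlapped over most of their length. The other 5 genes had 22 to 82 reads per library each, and the text gives their levels with that depth in view.

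Anxa3 was at 3.31, 3.11, 3.88 and 5.93 CPM in AmeloD and at 2.32, 2.57, 3.94 and 2.66 CPM in Control. The AmeloD libraries were mostly the higher but the highest Control library stood above 3 of them, and the change was 0.37 ± 0.18 (limma adjusted p = 0.188). Anxa11, whose protein tethers RNA granules to lysosomes and acts in the last step of cell division, was at 2.56, 2.67, 2.59 and 3.80 CPM in AmeloD and at 2.00, 2.10, 2.25 and 1.95 CPM in Control. Its groups did not overlap, as was so for 9.49% of all tested genes with AmeloD higher, but the change of 0.33 ± 0.18 did not pass the test (interval -0.03 to 0.70, limma adjusted p = 0.237). Anxa11 had 143 reads in AmeloD and 133 in Control.

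Anxa4, an annexin of secretory epithelia, was at 3.79, 3.19, 2.96 and 2.49 CPM in AmeloD and at 1.38, 3.39, 4.11 and 2.92 CPM in Control. The Control library labelled pCMV6 N was the lowest of the 8, at 22 reads, and the pCMV6 TGF library the highest, at 73 reads. The change was 0.10 ± 0.21 (limma adjusted p = 0.816), and without the Control pCMV6 N library it was -0.20. Anxa6, a negative regulator of Ras signalling with a doubled annexin core, was at 3.12 to 4.10 CPM in AmeloD and at 3.38 to 5.55 CPM in Control (-0.15 ± 0.18, limma adjusted p = 0.646). Anxa7, first known for fusing secretory granules, was at 3.66 to 5.01 CPM in AmeloD and at 3.05 to 4.88 CPM in Control (0.10 ± 0.18, limma adjusted p = 0.783). Over the 7 genes that did not pass, the 95% intervals left room for folds from 0.70 to 1.67 on the CPM + 1 scale. That scale understates changes of low genes.

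The 8 genes had a median change of 0.22 and 7 of them lay above 0, against a median of 0.05 over all 6849 tested genes. Under TMM scaling the medians were 0.15 and -0.00, and with edgeR or DESeq2 on the recovered reads 6 of the 8 lay above 0, Anxa4 then being at -0.01. The share of higher genes among all calls was 65.6% as reported, 52.9% under TMM scaling and 49% with equal medians (490 higher, 510 lower), and the call of Anxa1 stood in each.

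**Figure D2:**
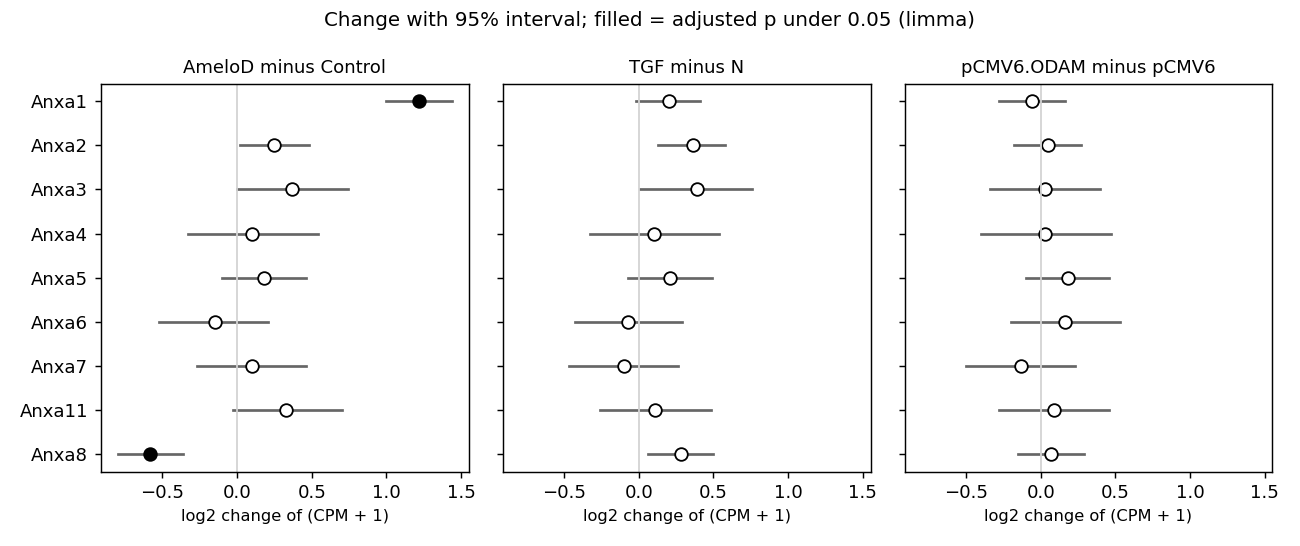
Change of each annexin between the levels of genotype, TGF label and plasmid on the log2(CPM + 1) scale (horizontal axes), as point and 95% interval from limma over 8 libraries. Filled points passed the test at an adjusted p under 0.05. Anxa1 at 1.22 and Anxa8 at -0.58 under genotype are the filled points.

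Of the 4 other annexins listed, Anxa10 and Anxa13 had 0 reads and Anxa8 was tested. Anxa8, an annexin of stratified epithelia, was at 35.0, 37.9, 43.3 and 45.6 CPM in AmeloD and at 58.6, 51.6, 60.8 and 74.2 CPM in Control. No AmeloD library reached the lowest Control library, as was so for 5.53% of tested genes, and the change was -0.58 ± 0.11 (interval -0.80 to -0.36, limma adjusted p = 0.000441). Anxa9, expressed in differentiating keratinocytes, had 6, 8, 6 and 12 reads in the AmeloD libraries and 0, 0, 0 and 1 in the Control libraries. A count of 0 allows up to 3 reads, which is 0.169 to 0.203 CPM in those 3 Control libraries. Scaled to library totals, its reads gave an AmeloD to Control ratio of 42.1, exact 95% limits being 7.04 and 1720.0, which covers counting error only. Anxa9 was too low for the test across genes.

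Ratios of annexins within a library do not depend on how libraries were scaled. Anxa1 and Anxa8 were singled out here after their opposite changes were seen, so the ratios are a description of the libraries used above, with no test. The ratio of Anxa1 to Anxa8 was 4.56, 3.30, 3.35 and 3.33 in AmeloD and 0.994, 1.01, 1.05 and 1.0 in Control, in the order used above. The Control values spread over 0.04 log2 units (SD) while Anxa1 itself ranged from 51.9 to 74.5 CPM there. The genotype difference of the mean log2 ratio was 1.83. The ratio of Anxa1 to Anxa2 was 1.32 to 2.12 in AmeloD and 0.819 to 0.916 in Control, a log2 difference of 0.98. The ratio to Anxa5 was 5.78 to 7.45 in AmeloD and 2.90 to 3.87 in Control, a log2 difference of 1.04. The log2 ratios to Anxa6, Anxa7 and Anxa11 differed by 1.42, 1.11 and 0.77, with no overlap of the genotypes. Those to Anxa3 and Anxa4 differed by 0.75 and 1.07, and there the genotypes overlapped.

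**Figure D3:**
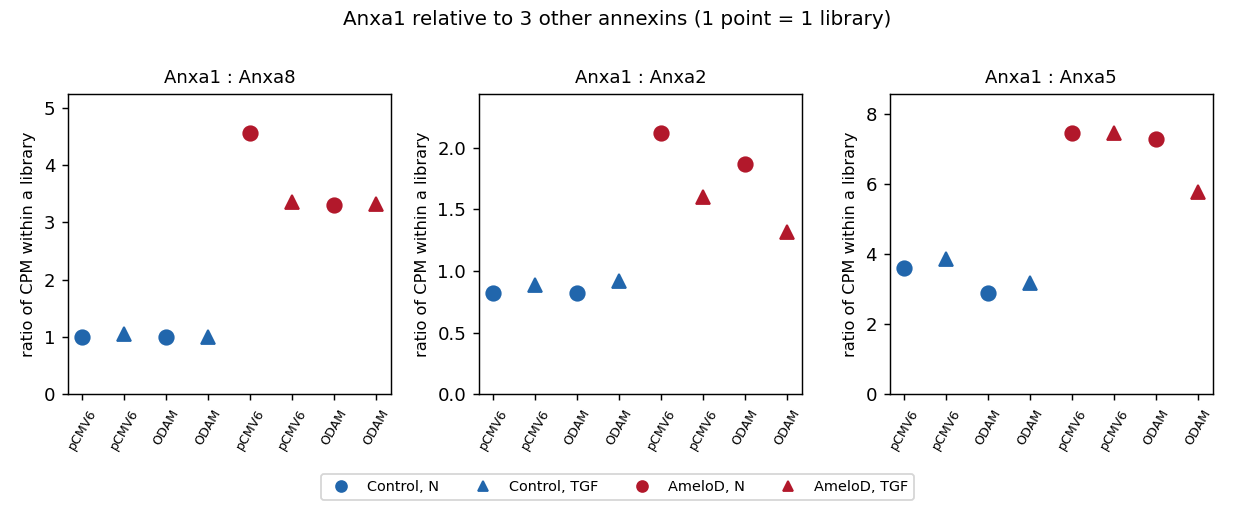
Ratio of Anxa1 CPM to Anxa8, Anxa2 and Anxa5 CPM within each library (vertical axes, from 0), with symbols and colours as in the plot of levels by library. The Control libraries sit at 0.994 to 1.05 for Anxa8, and the AmeloD libraries at 3.30 to 4.56.

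The genes whose pattern over the 8 libraries was most like that of Anxa1, among 1396 tested genes whose mean level reached 10 CPM, were Idh1 (cytosolic isocitrate dehydrogenase, Pearson r = 0.980), Nupr1l1 (r = 0.977) and Timp2 (a metalloproteinase inhibitor, r = 0.976). The points fall into the genotype groups and share library and depth, so these values mostly describe the genotype difference. After the genotype means were taken out, the same correlations over the 8 libraries were 0.684, 0.788 and 0.815. They are descriptions and were not tested.

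Partners of annexins were read from lists. Of 4 tested S100 partners, 1 rose in AmeloD, 0 fell and 3 did not pass (median change 0.02, against 0.05 over all tested genes). The share of all tested genes called for genotype was 13.8%. S100a10, which encodes the partner of annexin A2, was at 53.1, 42.0, 65.7 and 72.6 CPM in AmeloD and at 25.9, 28.0, 36.0 and 39.2 CPM in Control. The groups did not overlap, as was so for 9.49% of tested genes with AmeloD higher. The change of S100a10 was 0.82 ± 0.11 (limma adjusted p = 9.54e-06), while that of Anxa2 was 0.25. Of 5 tested other partners, receptors and effectors of 12 listed, 1 rose and 4 did not pass (median -0.04). This was Rasa1, encoding the Ras GTPase-activating protein that annexin A6 recruits, at 23.3 ± 3.77 CPM in AmeloD and 13.2 ± 1.65 CPM in Control (0.78 ± 0.14, limma adjusted p = 0.000297). Its call ended in the TGF (0.56, limma adjusted p = 0.0785) and in the pCMV6.ODAM libraries alone (0.60, limma adjusted p = 0.0751). Fpr1 and Fpr2, which encode receptors for annexin A1, had 0 reads in all 8 libraries.

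Of 14 tested plasma membrane repair genes of 19 listed, 2 rose, 0 fell and 12 did not pass (median 0.15). With 13.8% of all tested genes called, that count is near the background and says nothing about the list. Ehd1, an endocytic recycling ATPase, rose by 0.54 ± 0.17 (limma adjusted p = 0.0302), and Smpd1, acid sphingomyelinase, by 0.57 ± 0.18 (limma adjusted p = 0.0381). Both calls ended with equal medians, without the filter and with DESeq2 (adjusted p from 0.0511 to 0.140), and that of Smpd1 also with edgeR. Within subsets of 4 libraries Smpd1 passed in none of the 4 run (limma adjusted p from 0.157 to 0.281). Ehd1 passed in the N libraries alone (0.82, limma adjusted p = 0.00591) and not in the TGF (0.26, limma adjusted p = 0.676), pCMV6 or pCMV6.ODAM libraries alone, and its genotype by TGF interaction was -0.57 ± 0.34 (limma adjusted p = 0.999). The call of Smpd1 ended without any 1 of 6 libraries, all but Control pCMV6 N and Control pCMV6.ODAM TGF (highest limma adjusted p = 0.165). That of Ehd1 ended without AmeloD pCMV6 N, AmeloD pCMV6.ODAM N, Control pCMV6 N or Control pCMV6.ODAM N (highest limma adjusted p = 0.162). None of 7 tested phosphatidylserine scramblase and flippase genes of 12 listed passed (limma). Ano6, a calcium-activated scramblase, had the largest change among them, -0.50 ± 0.20 (limma adjusted p = 0.0894). It passed without AmeloD pCMV6.ODAM TGF (limma adjusted p = 0.0115) or without Control pCMV6.ODAM TGF (limma adjusted p = 0.0324). Ano6 also passed in 2 of the 14 alternatives that left out no single library, over which its change ran from -0.82 to -0.19.

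The comparison of TGF with N libraries asked which annexins respond to the condition labelled TGF. No annexin of the 8 passed limma's test (0 of 8, against 1.81% of all tested genes, 1.53% higher and 0.277% lower in TGF), and 0 passed with edgeR or DESeq2. At an unadjusted p under 0.05 limma had 2 of the 8, Anxa2 and Anxa3, against 11.9% of all tested genes, and 1 of the 8 under TMM scaling, equal medians, edgeR or DESeq2. The changes of the 8 genes lay between -0.10 and 0.39, and 6 of them lay above 0.

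Anxa2 was at 70.6, 63.3, 75.5 and 67.1 CPM in the N libraries and at 72.4, 81.3, 90.9 and 115 CPM in the TGF libraries, in the order Control pCMV6, Control pCMV6.ODAM, AmeloD pCMV6, AmeloD pCMV6.ODAM. TGF was the higher in all 4 matched pairs, as for 12% of tested genes, by 0.04, 0.36, 0.26 and 0.77 on the log2 scale in that order. The change was 0.36 ± 0.11 (interval 0.13 to 0.58, limma adjusted p = 0.115). The TGF and N ranges overlapped, as they did for all 8 annexins (4.26% of tested genes had no overlap), with the highest N library at 75.5 CPM and the lowest TGF library at 72.4 CPM. Anxa3 was likewise higher in all 4 pairs, by 0.57, 0.04, 0.18 and 0.75, with a change of 0.39 ± 0.18 (limma adjusted p = 0.402). Anxa1 changed by 0.20 ± 0.11 (limma adjusted p = 0.476), with the AmeloD pCMV6 pair going from 159.8 down to 145 CPM and the other pairs up. Anxa5 changed by 0.21 ± 0.13 (limma adjusted p = 0.592), and Anxa4, Anxa6, Anxa7 and Anxa11 by 0.10, -0.07, -0.10 and 0.11 (limma adjusted p from 0.893 to 0.936). Outside the set, Anxa8 was at 0.28 ± 0.11 (limma adjusted p = 0.241). The median of the 8 was 0.15, against 0.04 over all tested genes.

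Of 4 tested S100 partners, 2 rose with TGF, 0 fell and 2 did not pass (median 0.27). The share of all tested genes called for TGF was 1.81%. S100a10 was at 25.9 to 53.1 CPM in N and at 36.0 to 72.6 CPM in TGF libraries, higher in all 4 pairs, by 0.50 ± 0.11 (limma adjusted p = 0.0147). S100a11, which encodes a partner of annexin A1, was at 3220 to 4714 CPM in N and at 4403 to 6597 CPM in TGF libraries, higher in 3 of the 4 pairs, by 0.41 ± 0.09 (limma adjusted p = 0.0137). The call of S100a10 ended without AmeloD pCMV6.ODAM N (limma adjusted p = 0.147), AmeloD pCMV6.ODAM TGF (0.0650), Control pCMV6 N (0.0595) or Control pCMV6.ODAM TGF (0.0517). It also ended in 6 of 15 other alternatives, without the filter (0.0529), without the trend (0.176) and in the pCMV6, pCMV6.ODAM, AmeloD and Control libraries alone (highest adjusted p = 0.49, in Control). The call of S100a11 ended under TMM scaling (limma adjusted p = 0.184), with equal medians, edgeR and DESeq2, without the filter or the trend (adjusted p from 0.135 to 0.363), in the AmeloD (0.714) and pCMV6.ODAM libraries alone (0.416), and without AmeloD pCMV6 N, AmeloD pCMV6 TGF, Control pCMV6.ODAM N or Control pCMV6.ODAM TGF (limma adjusted p from 0.0837 to 0.149). Whether the S100 genes and the annexins differ in their response to TGF was not tested. None of the 5 other partners, 14 membrane repair and 7 scramblase and flippase genes passed (limma). Sri, sorcin, which binds annexin A7, had 0.40 ± 0.12 (limma adjusted p = 0.110), the actin crosslinker gene Flna 0.52 ± 0.15 (limma adjusted p = 0.0820) and Ano6 0.27 ± 0.20 (limma adjusted p = 0.644).

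**Figure D4:**
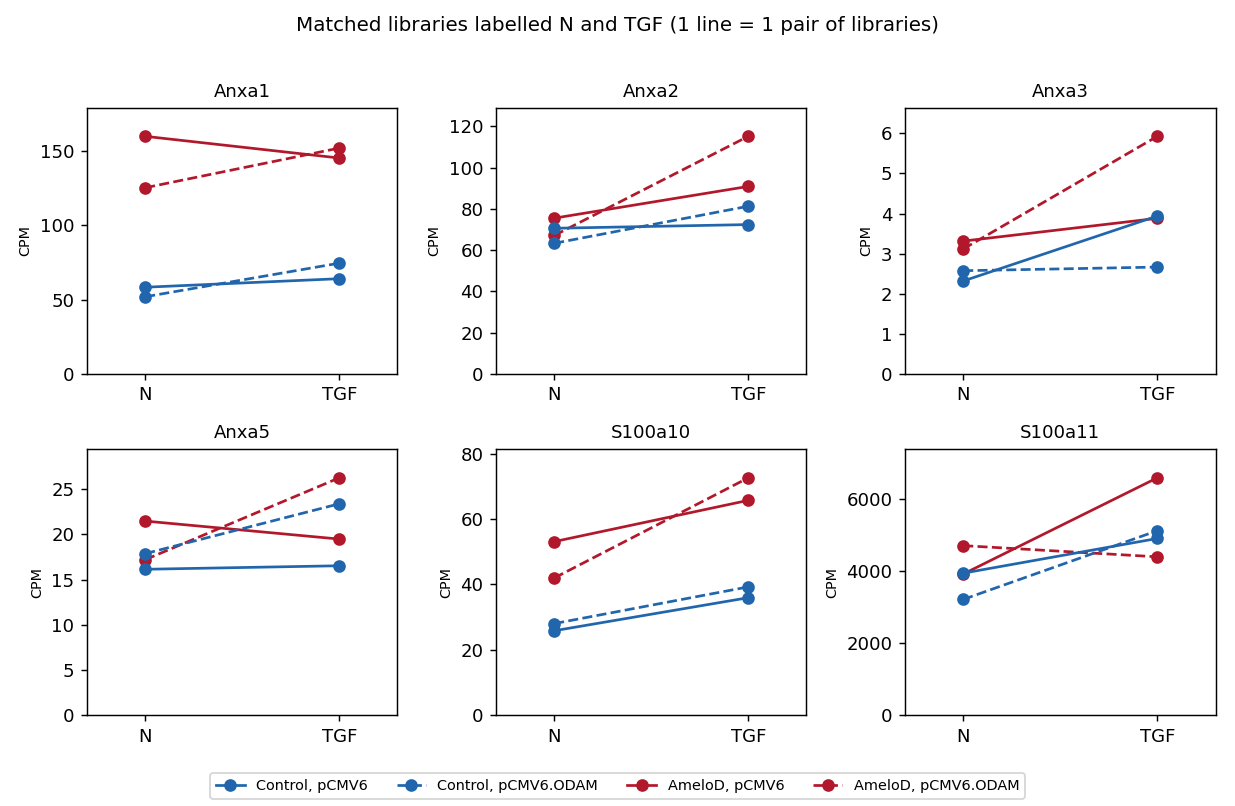
Level in CPM (vertical axes, from 0) of 4 annexins and of S100a10 and S100a11 in matched libraries labelled N and TGF. Each line joins a pair of libraries of the same genotype (colour) and plasmid (solid pCMV6, dashed pCMV6.ODAM). Anxa2, Anxa3 and S100a10 lie higher in TGF in all 4 pairs, and Anxa1 in 3.

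The comparison of pCMV6.ODAM with pCMV6 libraries asked whether the ODAM plasmid label goes with a change. None of the 8 annexins passed (0 of 8, limma; 0 at an unadjusted p under 0.05; 0 with edgeR and with DESeq2), and none of all tested genes did either (0%, with 454 genes at an unadjusted p under 0.05, 0 calls by edgeR and 1 by DESeq2). Anxa1 changed by -0.06 ± 0.11, Anxa2 by 0.05 ± 0.11, Anxa5 by 0.18 ± 0.13, Anxa6 by 0.16 ± 0.18 and Anxa7 by -0.13 ± 0.18, and Anxa3, Anxa4 and Anxa11 by 0.03, 0.03 and 0.09. These values had limma adjusted p from 0.839 to 0.992, with a median of 0.04 against 0.03 over all tested genes. Their 95% intervals left room for folds from 0.709 to 1.44 on the CPM + 1 scale. None of the listed partners passed. The largest change in each list was that of S100a11 (-0.14), the large scaffold gene Ahnak (-0.35), the ESCRT ATPase gene Vps4a (0.45) or the scramblase family gene Plscr3 (-0.32), with limma adjusted p from 0.665 to 0.808.

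Interactions test whether the change with one label depends on another. None of the 8 annexins passed for genotype by TGF, genotype by plasmid or plasmid by TGF (limma, 0.0146%, 0% and 0% of tested genes called; 0 with edgeR and with DESeq2). At an unadjusted p under 0.05 there were 0, 0 and 3 annexins, against 4.12%, 4.5% and 7.36% of all tested genes. The genotype change of Anxa1 in TGF libraries minus that in N libraries was -0.25 ± 0.22 (interval -0.70 to 0.19, limma adjusted p = 0.999). Anxa4 had the largest genotype by TGF value, -0.74 ± 0.40 (limma adjusted p = 0.999), and its N libraries include the Control pCMV6 N library at 22 reads. The other 6 lay between -0.14 (Anxa7) and 0.32 (Anxa2). For genotype by plasmid the 8 values lay between -0.44 (Anxa4) and 0.38 (Anxa3), with Anxa1 at -0.17 ± 0.21. In the plasmid pairs, Anxa1 and Anxa2 were lower with pCMV6.ODAM under N and higher under TGF in both genotypes, Anxa1 by -0.35 and -0.16 under N and 0.06 and 0.21 under TGF (AmeloD, then Control). For the plasmid by TGF interaction, Anxa1 (0.40 ± 0.19), Anxa2 (0.41 ± 0.19) and Anxa5 (0.53 ± 0.24) had an unadjusted p under 0.05 and limma adjusted p from 0.667 to 0.675. All tested genes together had a median of 0.16 in that interaction as deposited and of -0.00 under TMM scaling, where 0 annexins were under 0.05. The 3 values thus stand on a scale in which the median gene is above 0. Anxa7 was at 0.54 ± 0.33 and Anxa4 at -0.63 ± 0.41 there, and Anxa3, Anxa6 and Anxa11 at 0.02, -0.01 and 0.10. Of the listed partners none passed an interaction. The largest values by list for genotype by TGF were S100a11 (-0.17), Rasa1 (-0.44), Chmp4b, an ESCRT subunit gene (-0.82), and the flippase gene Atp11b (0.59). For genotype by plasmid they were S100a10 (-0.21), Ahnak (-0.56), the calpain gene Capn2 (-0.48) and Ano6 (0.63), and for plasmid by TGF S100a11 (-0.25), Pdcd6, a partner of annexins A7 and A11 (0.62), Chmp4b (0.96) and the scramblase gene Vmp1 (0.62). Their limma adjusted p ran from 0.642 to 0.999.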

How the data were processed

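Messenger RNA of 8 SF2 libraries was measured by 3' end sequencing. Per the labels' protocols, reads were trimmed, mapped to mRatBN7.2 by STAR and assigned to genes by featureCounts (2.7.10a and 2.0.1 per the submitters' processing notes). Molecular identifiers, strand setting and treatment of shared reads: not given in the sources used here. Per gene, the authors deposited CPM, scaled to a library total of which 15.6% to 17.5% lay in the table. Dividing each value by what 1 read is worth gave whole numbers for 100% of values within 0.01, so reads and totals were recovered. The test was limma 3.58.1 (R 4.3.3) on log2(CPM + 1), with additive terms for TGF, plasmid and genotype over 8 libraries (4 residual degrees of freedom, 3 with an interaction), eBayes trend, two-sided p values and Benjamini-Hochberg adjustment across all 6849 genes that reached 1 CPM in 4 or more libraries, called under 0.05. The scale understates changes of low genes. 95% intervals come from limma's standard errors. The eBayes step draws part of each gene's spread from the other genes. Small p values and narrow intervals thus rest on more than the residual degrees of freedom of a gene. The steps were tested on simulated data with the same assumed spread for every gene and no interactions. The shares below are averages over tested genes of all levels and were not worked out for low genes apart. Changes of 1.5-fold were recovered in 24% (genotype), 40% (TGF) and 34% (plasmid) of the genes given them. For 2-fold changes the shares were 90%, 86% and 80%. False calls made up 3.09%, 4.68% and 5.99% of the calls. A gene that did not pass may therefore still differ by a small fold. edgeR 4.0.16 and DESeq2 1.42.0 were run on recovered reads as alternatives, with other scalings, pseudocounts, filters, subsets and left-out libraries, and a block of matched pairs added after seeing the data. A 0 count was taken to allow 3 reads, and intervals on reads cover counting error only.

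The annexins and the gene lists were chosen with earlier results of these data known. From each list and comparison the text names at most 3 genes that passed, or the 1 with the largest change. Genes like a member were the 3 with the highest correlation for each annexin past an additive test. Trp63 was matched as Tp63, and Krt14 was not analysed here.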

Additional observations from a re-analysis of the deposited data

Results flagged for a closer look

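Each of the 8 annexins and Anxa8 was checked for a library far from the other 3 in each group of 4 that shares a genotype, TGF or plasmid label, which made 54 groups. The gap to the nearest library was divided by the range of the group and set against Dixon's critical value for 4 samples. For separate groups, each drawn from a single normal population, chance flags about 1 in 20. The 54 groups share libraries, and the TGF and plasmid groups mix both genotypes, so that rate is not the chance rate here. Of the groups 2 were flagged. The AmeloD pCMV6.ODAM TGF library was the highest in both. Anxa11 was at 3.80 CPM there and at 2.56 to 2.67 CPM in the other AmeloD libraries (gap over range 0.908, on 52 reads). Anxa3 was at 5.93 CPM there and at 2.57 to 3.11 CPM in the other pCMV6.ODAM libraries (0.838, on 81 reads). Without this library the genotype changes were 0.23 for both genes. No interaction of an annexin passed the test.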

How the results depend on the processing

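The call of Anxa1 and the fall of Anxa8 in AmeloD held in all 23 alternatives (log2 changes 1.09 to 1.35 and -0.67 to -0.52), and the number of annexins past the test was 1 for genotype and 0 for TGF and plasmid in each of them, and 0 in each alternative of the interactions. The labels give no replicate numbers, but libraries that differ in 1 label form 4 matched pairs for each comparison. A fit with these pairs as a block, chosen after seeing the data, had 3 residual degrees of freedom, called 1035 genes for genotype, 125 for TGF and 0 for plasmid, and changed no call of a named gene. Subsets of 4 libraries have 1 residual degree of freedom. The numbers of genes past the test were less stable. For genotype 946 became 606 with at least 5 CPM in 4 libraries (fewer genes tested), 437 in the TGF and 386 in the pCMV6.ODAM libraries alone, and 642 to 924 when 1 library was left out. For TGF 124 became 67 without a filter, 62 without the trend, 54, 11 and 82 in the Control, AmeloD and pCMV6.ODAM libraries alone, and 71 to 104 when 1 library was left out, lowest without AmeloD pCMV6.ODAM N (71) and Control pCMV6.ODAM N (76). The share of higher calls for TGF was 84.7% as reported and 69.7% when scaled to the table sum, and 59.3% in the pCMV6 libraries alone. For plasmid 0 became 1 with DESeq2, 3, 4 and 22 in the Control, N and TGF libraries alone, and 0 to 2 when 1 library was left out, the 2 without Control pCMV6.ODAM TGF. For genotype by TGF 1 became 0 with a pseudocount of 0.25, no filter, no trend, edgeR and DESeq2. The cause was not tested.

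Values of annexins that were not called changed sign in places. Genotype: Anxa4 -0.01 with edgeR and DESeq2, -0.27 in the TGF and -0.12 in the pCMV6.ODAM libraries, and -0.20 to 0.30 with 1 library left out; Anxa7 -0.02 to 0.25 with 1 left out. TGF: in the pCMV6 libraries Anxa1 -0.00 and Anxa5 -0.05, in the pCMV6.ODAM libraries Anxa4 -0.21 and Anxa7 0.17, in the AmeloD libraries Anxa4 -0.27 and Anxa6 0.04; with 1 left out Anxa4 -0.20 to 0.25, Anxa6 -0.20 to 0.06 and Anxa7 -0.26 to 0.01. Plasmid: Anxa3 -0.01 with TMM, the table sum and edgeR, -0.00 with DESeq2 and -0.16 in Control; Anxa4 -0.01 with the table sum, -0.06 with edgeR, -0.05 with DESeq2, -0.19 in AmeloD and -0.28 in TGF; Anxa2 -0.01 with the table sum and -0.16 in N; Anxa1 0.03 in Control and 0.14 in TGF; Anxa5 -0.08 and Anxa8 -0.04 in N; Anxa7 0.14 in TGF; Anxa11 -0.05 in Control. With 1 left out these were -0.16 to 0.05 for Anxa1, -0.07 to 0.14 for Anxa2, -0.11 to 0.16 for Anxa3, -0.27 to 0.23 for Anxa4 and -0.01 to 0.17 for Anxa11. Genotype by TGF: Anxa8 0.02 with the same median, 0.01 with the table sum and 0.00 with DESeq2. Plasmid by TGF: Anxa3 -0.14 with TMM and the same median, -0.03 with the table sum and -0.19 with edgeR and DESeq2; Anxa11 -0.05 with TMM, -0.06 with the same median and -0.07 with edgeR and DESeq2.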
